A study of Saccharomyces eubayanus and Saccharomyces cerevisiae x Saccharomyces eubayanus with 20 samples.

Results

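The ribosome biogenesis factors described here are the genes named UTP, NOP, RRP, NOC or NSA followed by a number. The rule used gene names and no expression values, although it was chosen with earlier results of these data known. They comprised 56 of the 5513 genes in the tables of the Saccharomyces eubayanus strains. In the table of the hybrid each of the 56 had a row in both subgenomes, which made 112 of 11292 genes, and every row passed the filter on low values (a mean of at least 1 FPKM, the fragments of a gene scaled by its length and by the size of the library). Messenger RNA had been sequenced from 20 shake flask cultures, 2 for each of 10 groups, grown in synthetic medium with 20 g/L of glucose, maltose or maltotriose. S. eubayanus CDFM21L.1, a Himalayan wild-type isolate that is Mal- Mtt- according to its label, was grown on glucose. IMX1765 is CDFM21L.1 with both SeSGA1 alleles replaced by ScMAL13, the S. cerevisiae maltose regulator gene, under the constitutive ScPGK1 promoter, and IMX1939 carries the same integration and lacks both alleles of the maltose transporter gene SeMALT1. Both engineered strains were grown on all 3 sugars, as was HTS020, a Mal+ Mtt+ hybrid of S. cerevisiae and S. eubayanus. The study names its hybrid of CDFM21L.1 and the brewing strain S. cerevisiae CBC-1 HTSH020, and HTS020 was read as that strain, so that the name CBC-1 rests on this reading. Each engineered strain and the hybrid is 1 line. The cultures were taken in mid-exponential phase at 1 optical density (OD660 of 12.5) according to the labels, whereas the study's methods give a higher density for maltotriose than for the other sugars, so that sugar and density at harvest cannot be told apart.

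These proteins build ribosomes in the nucleolus. RNA polymerase I makes a long precursor RNA, on which U3 small nucleolar RNA and the UTP complexes assemble the 90S particle, the first form of the small subunit. UTP-A and UTP-B bind the precursor, UTP-C is a small complex with Utp22 and Rrp7, and Nop1, Nop56 and Nop58 are the core proteins of the box C/D particles that methylate ribosomal RNA. Some other NOP, RRP and NOC proteins act in the 90S particle or on the small subunit, and others mature the 60S subunit, as the NSA proteins do. Rrp4, Rrp6, Rrp40, Rrp42, Rrp43, Rrp45 and Rrp46 belong to the exosome, the nuclease that trims the precursor and also degrades other RNAs. In S. cerevisiae these genes are known to be transcribed together during fast growth, through promoter motifs named PAC and RRPE.

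The promoters are shown first, because most of the genes, though not all, held motifs that the choice by name did not use. In the RefSeq annotation of S. cerevisiae S288C (build R64), the 300 bases before the start codon held PAC (GATGAG, searched on both strands) in 45 of the 56 genes, or 80.4%, against 19.1% of 6001 genes in all. RRPE (AAAAATTT, both strands) was found in 43, or 76.8%, against 15.1% of all genes, and both motifs in 35, or 62.5%, against 5.599%. Matches of PAC and RRPE cannot overlap each other by their letters. S288C is not the CBC-1 parent of the hybrid and no promoter of CDFM21L.1 was read, and a match of letters is a description and not a binding site. By complex, PAC was found in 16 of 18 60S factors, in 14 of 15 other 90S and 40S factors and in all 4 box C/D and U3 proteins, but in 3 of 7 exosome genes and neither of the UTP-C genes. RRP45, RRP46 and UTP22 held neither motif. The 69 PAC matches lay at a median of 119 bases before the start codon. The 250 bases before the start codon of 5 genes are given 5′ to 3′ on the strand of the gene, with motif matches in capitals. NOP56, NOP4 and UTP7 are shown as genes whose S. eubayanus copies fell strongly on maltotriose in the sections that follow. In the hybrid the S. cerevisiae copies of NOP4 and UTP7 fell less, with log2 differences of -1.05 and -0.87 against -1.98 and -1.70 for the S. eubayanus copies. NOP16 is shown as a gene with both motifs whose copies in the hybrid did not fall on maltotriose against glucose by the test, and UTP22 as a gene without either motif that fell.
NOP56 (chr12:545847-546096, R64, + strand): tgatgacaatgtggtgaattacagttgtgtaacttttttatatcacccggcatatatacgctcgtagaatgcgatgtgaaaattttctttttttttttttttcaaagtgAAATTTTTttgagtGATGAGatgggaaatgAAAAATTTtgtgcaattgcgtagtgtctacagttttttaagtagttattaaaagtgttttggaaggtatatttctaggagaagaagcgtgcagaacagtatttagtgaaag
NOP4 (chr16:469689-469938, R64, + strand): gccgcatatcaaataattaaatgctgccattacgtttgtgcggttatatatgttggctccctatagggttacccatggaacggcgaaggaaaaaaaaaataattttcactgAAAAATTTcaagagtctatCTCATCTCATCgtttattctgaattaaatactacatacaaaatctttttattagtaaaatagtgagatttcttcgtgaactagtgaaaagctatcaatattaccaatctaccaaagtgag
UTP7 (chr5:325937-326186, R64, - strand): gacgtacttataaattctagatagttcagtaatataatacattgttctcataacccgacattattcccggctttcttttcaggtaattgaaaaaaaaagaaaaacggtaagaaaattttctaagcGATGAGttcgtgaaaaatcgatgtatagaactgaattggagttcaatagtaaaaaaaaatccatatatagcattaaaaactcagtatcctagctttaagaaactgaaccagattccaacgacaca
NOP16 (chr5:156553-156802, R64, + strand): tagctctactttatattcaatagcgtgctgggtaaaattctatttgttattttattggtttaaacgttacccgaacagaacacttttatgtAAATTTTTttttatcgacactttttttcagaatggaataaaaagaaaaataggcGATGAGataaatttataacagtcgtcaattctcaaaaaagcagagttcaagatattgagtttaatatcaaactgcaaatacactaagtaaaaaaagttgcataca
UTP22 (chr7:662108-662357, R64, + strand): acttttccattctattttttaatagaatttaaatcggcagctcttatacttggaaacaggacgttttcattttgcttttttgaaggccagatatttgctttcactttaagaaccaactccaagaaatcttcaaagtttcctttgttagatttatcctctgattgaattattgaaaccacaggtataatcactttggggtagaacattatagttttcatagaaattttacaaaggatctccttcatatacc

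In NOP56 a PAC match lies between a pair of RRPE matches, and in NOP4 a pair of overlapping PAC matches follows the RRPE match. The window of UTP22 contains no match, and UTP7 has a single PAC match.

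Transcript levels per length differed widely among the genes. Over the 14 libraries of the S. eubayanus strains the median of the mean levels was 51.2 FPKM, against 45.5 for all genes, and 10 of the 56 were at 100 FPKM or above. NOP1 (YDL014W), which encodes the methyltransferase fibrillarin and lies on chromosome 4 from 426489 to 427508 in the assembly of CDFM21L.1, had the highest level, a mean of 1286 FPKM. NOP56 at 508 and NOP58 at 315 FPKM came next, so that the box C/D core proteins stood above every other factor. The lowest was UTP20 at 8.60 FPKM, the gene of a very large 90S protein, and the order was kept at both ends in the hybrid, where NOP1 was highest and UTP20 lowest in each subgenome. Within the complexes the extremes were UTP15 and UTP10 for UTP-A, UTP6 and UTP21 for UTP-B, RRP7 and UTP22 for UTP-C, NOP15 and NOP8 for the 60S factors, NOP6 and UTP20 for the other small subunit factors, and RRP42 and RRP6 for the exosome.

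The libraries held between 16874233 and 27175322 reads in 19 cases and 318922 in culture 1 of IMX1765 on maltotriose, where the least covered of the 56 genes had 6 reads. The engineered genes followed the labels. ScMAL13 was at 0.10 and 0.21 FPKM in CDFM21L.1 and at 331 or more in the 12 libraries of IMX1765 and IMX1939, and SeMALT1 stayed at 1.23 FPKM or less in IMX1939 while reaching 25.9 in IMX1765. For 3 hybrid cultures the free text of the label names another medium than the title and the carbon source field, which were used here. With 2 cultures per group, no exact permutation test of 1 gene can give a p below 0.333, so the tests are those of limma, a linear model that shares the spread between cultures over all genes, on log2(FPKM + 1) with Benjamini-Hochberg adjustment over all genes tested. In bulk libraries, less of a transcript per cell, fewer cells that carry it and a larger share of other transcripts cannot be told apart.

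**Figure D1:**
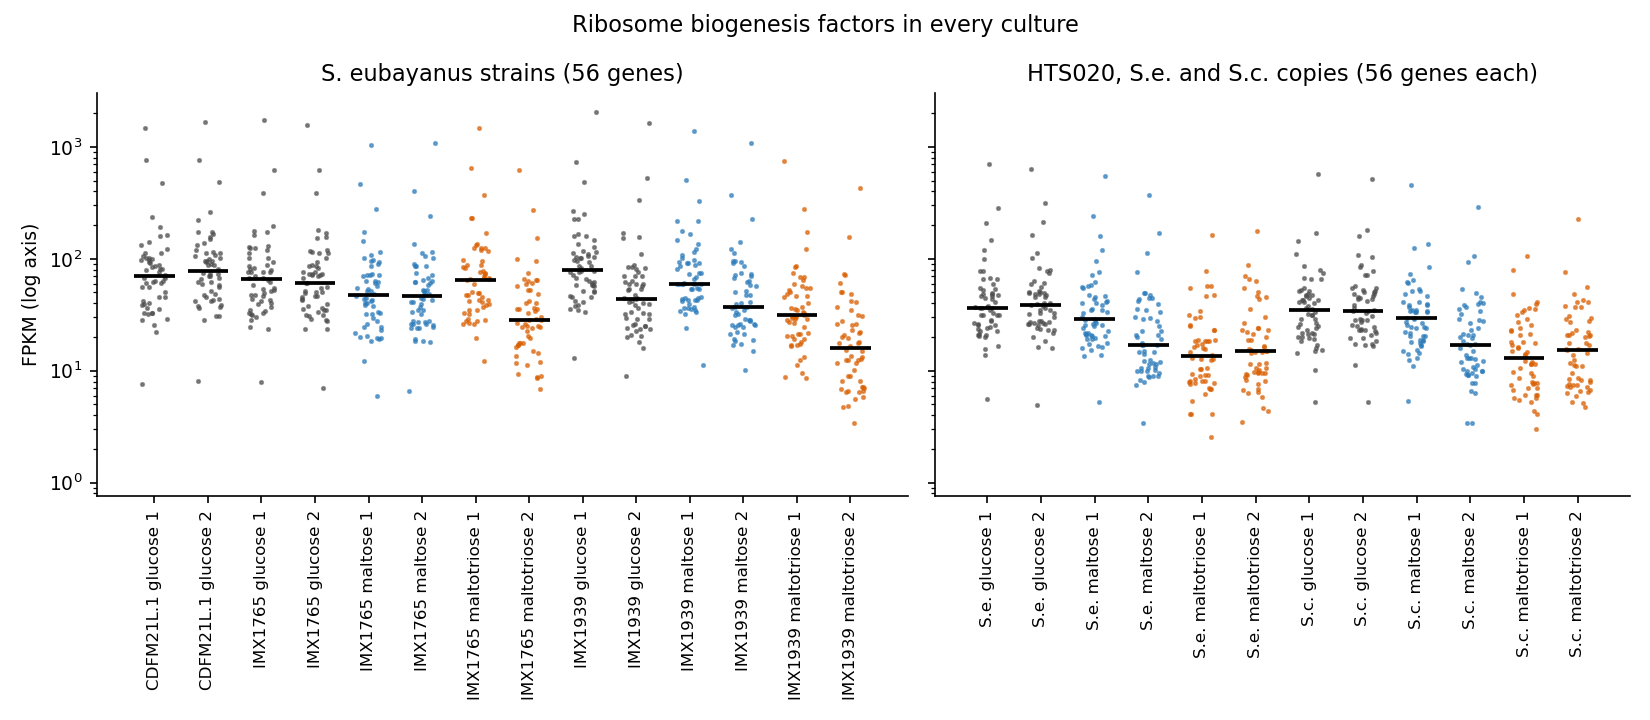
FPKM of the 56 ribosome biogenesis factors in every culture on a log axis, 1 point per gene with the median as a black line, for the S. eubayanus strains (left) and for both copies in HTS020 (right), coloured grey for glucose, blue for maltose and orange for maltotriose. The medians fall from 79.8 and 43.9 FPKM on glucose to 31.4 and 15.9 on maltotriose in IMX1939, and the S. eubayanus copies in HTS020 fall from 36.6 and 38.5 to 13.4 and 14.9.

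The first question was how the genes responded to the sugar in the S. eubayanus strains that could use it. In IMX1939 all 56 were lower on maltotriose than on glucose, with a median log2 difference of -1.48 against 0.05 for all genes. With limma, 39 of the 56 fell and none rose, where 16% of all genes fell. The cultures of the sugars did not overlap for 52 of the 56, against 31.8% of all genes that were lower without overlap, and none was higher without overlap, as 39.6% of all genes were. As the plot of FPKM by culture shows, the factors took 1.09% and 0.684% of the reads on glucose and 0.429% and 0.224% on maltotriose.

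The largest fall was that of UTP7, a component of the 90S particle. UTP7 was at 75.8 and 41.6 FPKM on glucose and at 18.2 and 3.41 on maltotriose, a log2 difference of -2.64 ± 0.87 (SE, adjusted p = 0.0366, limma). NOP15, an RNA-binding 60S factor, was at 269 and 156 FPKM on glucose and at 59.5 and 25.6 on maltotriose (log2 difference -2.36 ± 0.58, adjusted p = 0.0119, limma). In both genes every maltotriose culture lay below every glucose culture, but the 2 cultures of each sugar also differed among themselves. NOP4, another 60S factor, had a log2 difference of -2.27, UTP18, a UTP-B subunit, of -2.04, and NOP12, a 60S factor, of -1.91, and all 3 passed the test.

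The box C/D core proteins fell with them. NOP1 was at 2058 and 1625 FPKM on glucose and at 746 and 430.4 on maltotriose (log2 difference -1.69 ± 0.38, adjusted p = 0.0077, limma). NOP58 and NOP56 fell as well, with log2 differences of -1.84 and -1.56. RRP9, the U3-specific protein, was at 134 and 70.2 FPKM on glucose and at 50.5 and 17.9 on maltotriose, and did not pass the test although its cultures did not overlap.

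By complex, 17 of the 18 60S factors fell (median log2 difference -1.58), as did 10 of 15 other 90S and 40S factors (-1.39), 3 of 4 U3 and box C/D proteins (-1.67), 2 of 6 UTP-A subunits (-1.40), 3 of 4 UTP-B subunits (-1.62) and both UTP-C genes (-1.38). RRP5, which acts in both subunit pathways, NOP7, a 60S factor, and UTP22 fell, with log2 differences of -1.20, -1.14 and -1.74. NSA2, a 60S factor, was at 225 and 88.5 FPKM on glucose and at 69.2 and 30.5 on maltotriose and missed the threshold (adjusted p = 0.051, limma). The exosome differed in size, with 2 of 7 genes called and a median of -0.55. The counts in this paragraph stand against the 16% of all genes that fell in this comparison. RRP6, the nuclear exonuclease, had the smallest difference of the 56, at 33.4 and 20.0 FPKM on glucose and 29.8 and 17.6 on maltotriose (log2 difference -0.17 ± 0.27, adjusted p = 0.65, limma).

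**Figure D2:**
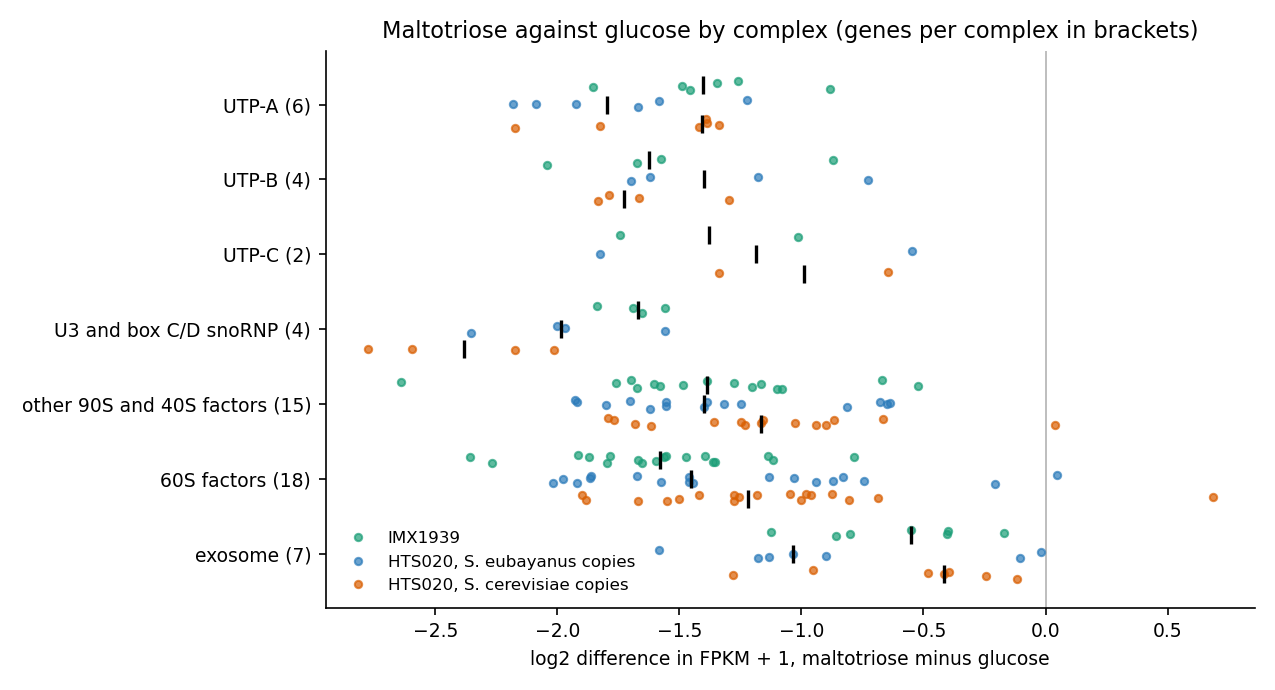
Log2 difference in FPKM + 1 between maltotriose and glucose for each factor (points), grouped by complex on the vertical axis with the number of genes in brackets, in IMX1939 (green) and for the S. eubayanus (blue) and S. cerevisiae (orange) copies in HTS020, with medians as black lines. The box C/D and U3 proteins have medians of -1.67, -1.99 and -2.38 and the exosome genes of -0.55, -1.03 and -0.42.

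The 2 cultures of IMX1939 did not stand at the same level. On glucose all 56 factors were higher in culture 1 than in culture 2, by a median of 0.84 on the log2 scale, on maltose 55 were, by 0.68, and on maltotriose 56 were, by 0.82, while all genes had medians of 0.02, 0.12 and 0.16. A list of 25 stress and stationary phase genes stood the other way, at a median of 10.8 and 107 FPKM in glucose cultures 1 and 2, at 82.9 and 139.9 in the maltose cultures and at 127 and 300.5 in the maltotriose cultures. The part of this difference in the results was not tested. Without glucose culture 1 or without maltotriose culture 2, 3 of the 56 fell (median log2 differences -0.999 and -0.89), close to the share of all genes that fell in those fits, 4.5% and 3.52%. With only these 2 groups in the fit 7 fell, where 7.37% of all genes did, and 51 fell without maltotriose culture 1, where 20.6% of all genes did. Between cultures of the same number the medians were -1.38 and -1.49, and all 56 were lower in each.

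From maltose to maltotriose IMX1939 showed the same direction in all 56 genes, with a median log2 difference of -1.12. By limma 1 gene passed the test, where 1.04% of all genes fell and 0.444% rose. That gene was RRP1, a 60S factor (66.3 and 47.3 FPKM on maltose, 24.5 and 17.6 on maltotriose, log2 difference -1.39 ± 0.25, adjusted p = 0.0304, limma). The 2 sugars did not overlap for 46 of the 56, against 30.6% of all genes lower and 26.6% higher without overlap. The count was 19 without the library of few reads in the fit, where 8.31% of all genes fell, and 11 with limma voom on recovered reads, where 4.24% did. Of single cultures left out, 4 genes passed without maltotriose culture 1, where 1.76% of all genes fell, and 0 without any of the other 3 cultures.

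In IMX1765 the maltotriose cultures disagreed with each other. Of the 56 factors, 54 were higher in culture 1, the library of few reads, than in culture 2, by a median of 1.06 on the log2 scale. Of all genes 50.9% were higher in culture 1, with a median of 0.02. RRP1 was the only gene called, where 1.59% of all genes fell and 4.59% rose. It was at 67.0 and 61.1 FPKM on glucose and at 26.04 and 30.2 on maltotriose (log2 difference -1.16 ± 0.25, adjusted p = 0.0316, limma). The value of 26.04 in culture 1 rested on 7 reads. The median of the 56 was -0.58. The sugars did not overlap for 21 of the 56, all lower on maltotriose, against 27.1% of all genes lower and 26.5% higher. Without the library of few reads, 10 of the 56 fell, where 12.2% of all genes fell and 16.5% rose, and the median was -1.19. Without culture 2, and hence with that library alone, 1 factor fell, where 7.05% of all genes did, and the median was 0.05. None was called without either glucose culture. NOP1 illustrates the split, with 1739 and 1573 FPKM on glucose and 1479 and 619 on maltotriose, so that culture 1 was near the glucose level and culture 2 well below it. The stress list was at a median of 72.9 FPKM in culture 1 and 235 in culture 2, and its part was not tested. The response to maltotriose was not tested between IMX1765 and IMX1939 because of this library.

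On maltose the shifts were smaller and no factor passed the test in either engineered strain. In IMX1765, 54 of the 56 were lower than on glucose, with a median log2 difference of -0.47 against -0.05 for all genes. None was called by limma, where 1.94% of all genes fell and 7.4% rose, and none had an unadjusted p under 0.05. None was called by limma voom either, where 4.05% of all genes fell and 11% rose. The 4 cultures were nevertheless well separated, since 52 of the 56 were lower on maltose without overlap and 2 higher, against 38.4% and 31.5% of all genes. In a fit of these 4 libraries alone, without the spread of the other groups, 39 of the 56 fell where 16.7% of all genes did. NOP1 was at 1739 and 1573 FPKM on glucose and at 1029 and 1072 on maltose, and UTP7, with the largest difference, at 55.4 and 51.3 on glucose and 32.0 and 26.05 on maltose (log2 difference -0.86 ± 0.87, adjusted p = 0.64, limma). The exceptions, singled out after the values were seen, were exosome genes. RRP40, a core subunit, was at 76.1 and 76.0 FPKM on glucose and at 89.5 and 90.1 on maltose, and RRP6 at 32.7 and 28.7 on glucose and 33.7 and 36.9 on maltose.

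In IMX1939 the median difference on maltose was -0.23 against 0.10 for all genes, and 48 of the 56 were lower. Limma called 0, where 2.35% of all genes fell and 13.8% rose, and 1 gene had an unadjusted p under 0.05. That gene was RRP40, at 65.7 and 56.7 FPKM on glucose and at 90.8 and 91.5 on maltose, so that the sugars did not overlap (log2 difference 0.57 ± 0.22, adjusted p = 0.13, limma), and limma voom called it higher. Without overlap 5 of the 56 were lower and 1 was higher, against 19.3% and 36% of all genes. The median turned positive without glucose culture 1 (0.20) or without maltose culture 2 (0.10). The response to maltose was compared between the engineered strains by an interaction term, which was called for 0 of the 56 by limma and by limma voom, and none had an unadjusted p under 0.05. The median of this difference was 0.19 against 0.15 for all genes, and it was -0.23 without glucose culture 2 of IMX1939 and -0.11 without its maltose culture 1.

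**Figure D3:**
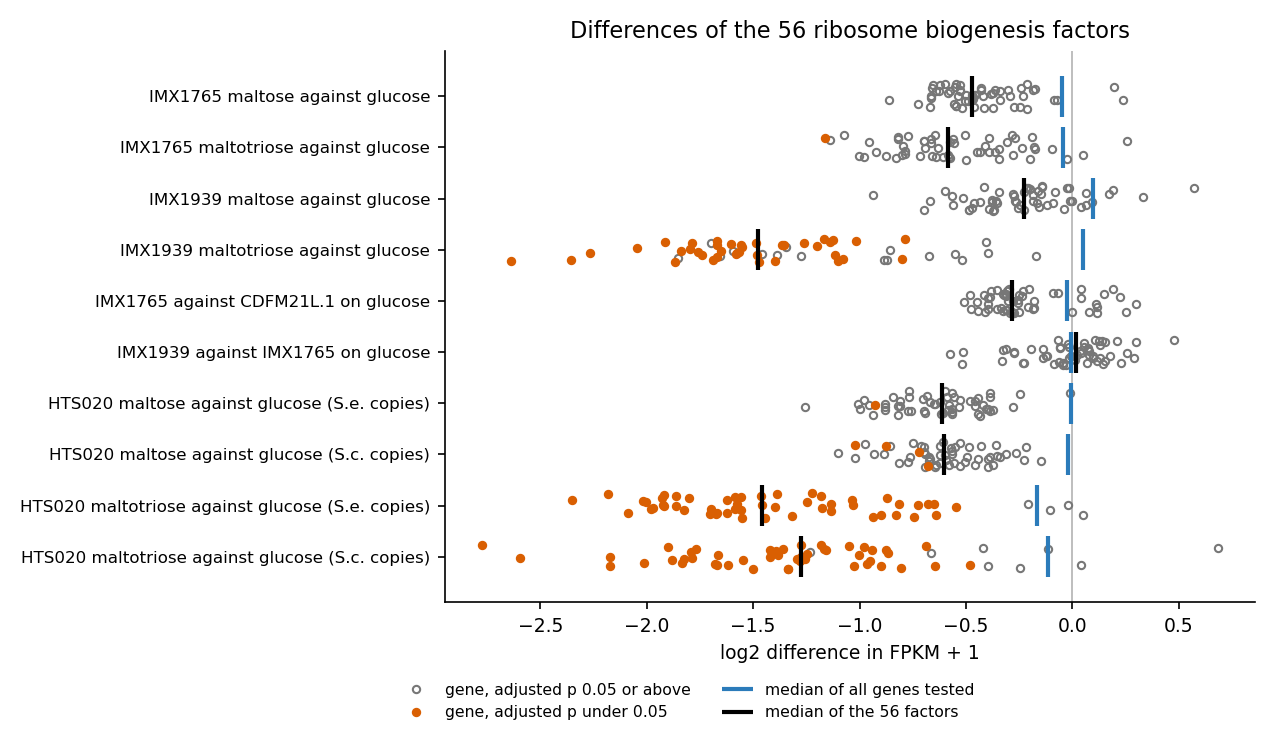
Log2 difference in FPKM + 1 of each factor (points, filled where the adjusted p is under 0.05) in 10 comparisons, with the median of the 56 factors (black) and of all genes tested (blue). The medians are near -0.47 on maltose in IMX1765 and -0.61 and -0.60 in HTS020, and reach -1.48, -1.46 and -1.28 on maltotriose in IMX1939 and in the 2 sets of copies in HTS020.

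The strains were also compared on glucose, where the integration of ScMAL13 is the intended difference between IMX1765 and CDFM21L.1. In IMX1765, 45 of the 56 factors were lower, with a median log2 difference of -0.28 against -0.02 for all genes, and without overlap 40 were lower and 3 higher, against 36.5% and 32.7% of all genes. None passed the test, where 0% of all genes fell and 0.037% rose, none had an unadjusted p under 0.05, and limma voom called none. In a fit of these 4 libraries alone 31 of the 56 fell, where 12.4% of all genes did. The direction differed between chromosomes. The genes of chromosomes 4, 9 and 15 as a whole stood higher in IMX1765, with a median of 0.33 over 1007 genes against -0.07 over the 4395 genes of the other 13 chromosomes. The 13 factors on those 3 chromosomes had a median of 0.11, with 11 of them higher, whereas the 43 factors elsewhere were all lower, with a median of -0.31. NOP1 on chromosome 4 was at 1464 and 1676 FPKM in CDFM21L.1 and at 1739 and 1573 in IMX1765. NOP58 on chromosome 8 was at 471 and 486 FPKM in CDFM21L.1 and at 389 and 390.1 in IMX1765. These 3 chromosomes were chosen after their values were seen. Between IMX1939 and IMX1765 on glucose the median was 0.02, and 29 of the 56 were higher in IMX1939. Limma called 0 with no unadjusted p under 0.05, where 1.13% of all genes fell and 0.167% rose. Limma voom also called 0, where 2.59% of all genes fell and 0.648% rose. Without overlap 3 were lower and 3 higher, against 27.7% and 26.4% of all genes. The median was -0.43 without glucose culture 1 of IMX1939 and 0.43 without its culture 2.

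The hybrid addressed whether copies from both parents respond to the sugars in the same cultures. On maltotriose 109 of the 112 copies were lower than on glucose, and 100 fell while none rose, where 39.7% of all genes fell and 31.3% rose. The median log2 difference was -1.34 against -0.14 for all genes, and after rescaling of the libraries, which moved the median of all genes to 0.00, it was -1.20 and 96 copies fell. Of the S. eubayanus copies 52 fell (median -1.46, where 41.2% of the genes of that subgenome fell), and of the S. cerevisiae copies 48 (median -1.28, where 38.3% fell). Both copies fell in 47 of the 56 pairs, the S. eubayanus copy alone in 5, the S. cerevisiae copy alone in 1 and neither in 3. The sugars did not overlap for 106 of the 112, all lower, against 49% of all genes lower and 39.6% higher. Leaving out single cultures gave between 78 and 87 calls, where between 31.2% and 35.5% of all genes fell.

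NOP1 and NOP58 showed the largest falls of the S. cerevisiae copies. NOP1 of the CBC-1 subgenome stood at 569 and 518 FPKM in the glucose cultures, at 452 and 290.4 with maltose and at 80.1 and 76.7 with maltotriose (log2 difference to glucose -2.78 ± 0.20, adjusted p = 3.3e-05, limma). The cultures of each sugar lay close together next to this fall, and NOP1 gave up its place as the highest S. cerevisiae copy on maltotriose to NOP16. NOP58 of CBC-1 was at 171 and 181 FPKM on glucose and at 27.5 and 29.1 on maltotriose (-2.59 ± 0.15, adjusted p = 1.3e-05, limma). The S. eubayanus copies of both fell less, NOP1 from 706 and 633 FPKM to 163 and 177 (-1.97) and NOP58 from 207 and 214 to 57.4 and 87.5 (-1.56). NOP56 went from 287 and 313 FPKM to 77.3 and 70.9 (-2.001) in the S. eubayanus copy and from 144 and 159 to 35.3 and 38.2 (-2.01) in the S. cerevisiae copy.

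RRP9 had the largest fall of the S. eubayanus copies, from 47.4 and 50.6 FPKM on glucose to 7.83 and 9.83 on maltotriose (log2 difference -2.35 ± 0.28, adjusted p = 0.000273, limma). UTP4, a UTP-A subunit, followed with 26.9 and 26.7 FPKM on glucose and 4.08 and 6.40 on maltotriose (-2.18 ± 0.34). UTP9 of the same complex had a log2 difference of -2.17 in its S. cerevisiae copy. Across complexes, all 12 UTP-A copies fell, with a median of -1.63, all 8 of UTP-B (-1.64), all 4 of UTP-C (-0.99) and all 8 of the U3 and box C/D proteins (-2.09), as well as 27 of 30 copies of other 90S and 40S factors (-1.28) and 33 of 36 of 60S factors (-1.27). RRP5 fell in its S. eubayanus and S. cerevisiae copies with log2 differences of -1.39 and -1.36, NOP7 with -1.13 and -1.28, UTP22 with -1.82 and -1.34 and NSA2 with -0.94 and -1.27. The exosome again had the smallest median, -0.69, with 8 of 14 copies called. The counts in this paragraph stand against the 39.7% of all hybrid genes that fell.

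A few copies did not follow the others. NOP16, a 60S factor, stood at 85.8 and 108 FPKM with glucose, 64.3 and 53.9 with maltose and 106 and 227 with maltotriose in its S. cerevisiae copy, so that the last 2 cultures differed from each other (log2 difference to glucose 0.68 ± 0.33, adjusted p = 0.10, limma). Its S. eubayanus copy was at 66.1 and 62.9 FPKM on glucose and 46.8 and 66.2 on maltotriose, which overlap. In the CBC-1 subgenome the neighbours of NOP16 on either side were lower on maltotriose, MNN1 with a log2 difference of -3.45 and PMI40 of -0.95, and in IMX1939 NOP16 had the level 148 and 69.7 FPKM on glucose and 36.6 and 22.2 on maltotriose. RRP14, another 60S factor, was at 31.4 and 35.0 FPKM on glucose and 25.7 and 45.7 on maltotriose in its S. eubayanus copy. Its S. cerevisiae copy fell from 42.9 and 43.9 to 22.7 and 31.1 FPKM (-0.69 ± 0.19, adjusted p = 0.0131, limma). HOT13 and TEF4, the neighbours of RRP14 on the opposite strand, moved in opposite directions in both subgenomes, HOT13 with log2 differences of 0.97 in S. eubayanus and 2.95 in CBC-1 and TEF4 with -1.09 and -2.28, and the library kit does not mark strand. RRP46 and RRP6 of the exosome completed the S. eubayanus copies that did not fall, RRP46 with 44.2 and 50.8 FPKM on glucose and 47.1 and 46.3 on maltotriose and RRP6 with 13.7 and 16.2 on glucose and 12.6 and 15.1 on maltotriose. Besides NOP16, the S. cerevisiae copies that did not pass the test were RRP4, RRP6, RRP40 and RRP46 of the exosome, UTP20, RRP36 and NOC4, a small subunit factor. UTP20 was at 5.23 FPKM in both glucose cultures and at 4.41 and 6.58 on maltotriose, and RRP36 (-1.23) and NOC4 (-0.67) were close to the threshold, with adjusted p of 0.0542 and 0.0565 (limma). Neighbours were looked up after the values were seen, and their part was not tested.

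On maltose all 112 copies were lower than on glucose in HTS020, with a median log2 difference of -0.61 against -0.01 for all genes, but 5 passed the test, where 2.98% of all genes fell and 8.47% rose. By subgenome 1 S. eubayanus copy fell, where 2.87% of those genes fell and 8.91% rose, and 4 S. cerevisiae copies, where 3.08% fell and 8.05% rose. Those were NOP53, RRP14, RRP15 and NOP8 of CBC-1, all 60S factors, and RRP36, a 90S factor, of S. eubayanus. NOP53 had the largest of these falls, from 51.1 and 57.4 FPKM on glucose to 34.8 and 19.6 on maltose (-1.02 ± 0.26, adjusted p = 0.0484, limma), and RRP15 the smallest p, from 68.0 and 71.1 to 47.0 and 37.2 FPKM (-0.72, adjusted p = 0.0278, limma). The cultures did not overlap for 102 of the 112, against 31.4% of all genes lower and 33.2% higher. They comprised 53 S. eubayanus copies, where 31.3% of those genes were lower and 34.6% higher without overlap, and 49 S. cerevisiae copies, where 31.5% were lower and 31.9% higher. The maltose cultures stood apart, with all 112 copies higher in culture 1 than in culture 2, by medians of 0.63 and 0.67 in the S. eubayanus and S. cerevisiae copies. Of all genes of those subgenomes 63.7% and 64.2% were higher in culture 1, with medians of 0.10 and 0.11. The stress list again stood the other way in these cultures, at a median of 38.9 and 114 FPKM for the S. eubayanus copies, and its part was not tested. Without maltose culture 1, 100 copies fell, where 18.1% of all genes did, and without any of the other 3 cultures none did. The count lay between 1 and 11 under the other settings.

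Between maltotriose and maltose in the hybrid 56 copies fell and 3 rose, where 36.7% of all genes fell and 28.1% rose, with a median log2 difference of -0.71 against -0.15. NOP1 and NOP58 of CBC-1 fell most, with log2 differences of -2.19 and -2.04, followed by RRP9 of S. eubayanus (-1.58) and NOP56 of CBC-1 (-1.53) and of S. eubayanus (-1.43). All 8 copies of the U3 and box C/D proteins and 11 of 12 of UTP-A fell, against 2 of 8 of UTP-B. The copies that rose were NOP16 of CBC-1 (log2 difference 1.38 ± 0.33, adjusted p = 0.00898, limma), RRP14 of S. eubayanus (0.87 ± 0.30) and RRP46 of S. eubayanus (0.38 ± 0.13). The sugars did not overlap for 70 lower and 4 higher copies, against 45.5% and 36% of all genes. For all 3 that rose the maltose cultures were the lowest of the hybrid. Leaving out single cultures moved these counts. Without maltose culture 2, 99 copies fell and 1 rose, where 40.8% of all genes fell. Without maltotriose culture 1, 30 of the 112 fell and 2 rose, where 32.4% of all genes fell, and without maltotriose culture 2, 37 fell and 1 rose, where 30.5% did, so that the factors were then near the share of all genes.

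Finally, the S. eubayanus and S. cerevisiae copies were compared within each library as the log2 ratio of their FPKM, for the 54 pairs with a mean of 10 FPKM or above in both subgenomes among 3537 such pairs. Reads that fitted both copies were removed according to the study's methods, so the ratio rests on sequence that differs between the parents. On glucose the median log2 ratio of all 56 pairs was 0.11, against 0.01 for the 3537 pairs. FPKM divides by the whole gene length, so a ratio of levels may also reflect how much of each copy could be counted. This was not tested. From glucose to maltose no ratio changed by limma, where 2.09% of all pairs rose and 1.36% fell, and 1 had an unadjusted p under 0.05. From glucose to maltotriose the ratio rose for 7 of the 54 and fell for 12, where 27.4% of all pairs rose and 32.9% fell. The median change was -0.03 against -0.05 for all pairs.

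**Figure D4:**
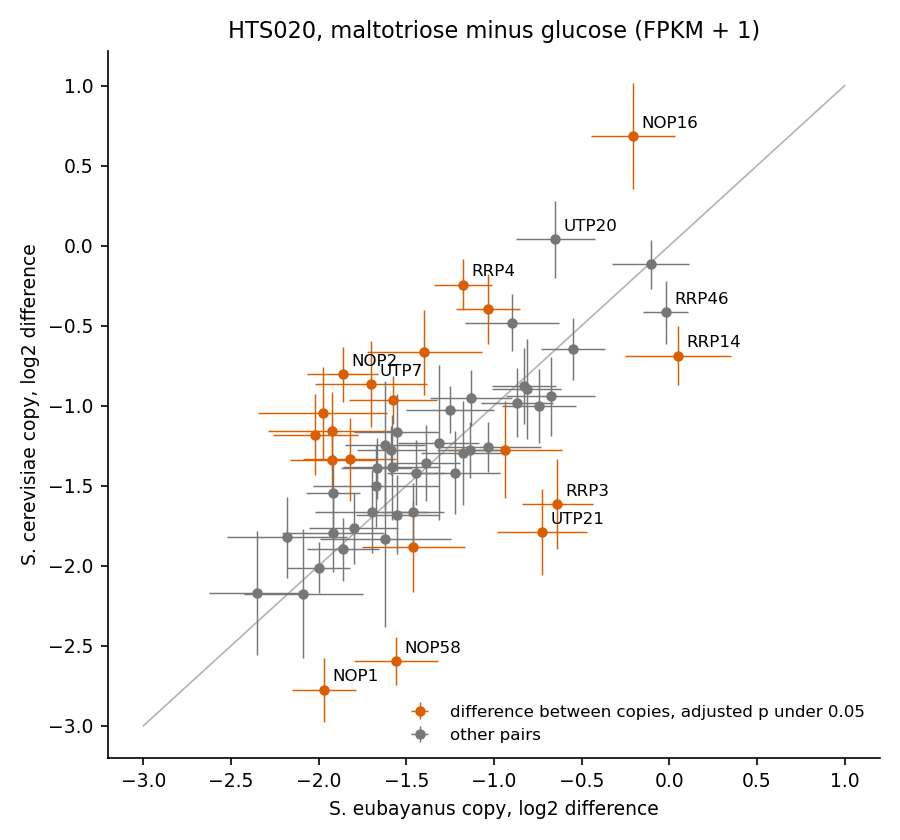
Log2 difference between maltotriose and glucose of the S. eubayanus copy (horizontal axis) and of the S. cerevisiae copy (vertical axis) of each factor in HTS020, with standard errors as bars, the line of equal change in grey and pairs whose ratio changed in orange. NOP1 and NOP58 lie below the line, with -2.78 and -2.59 for the S. cerevisiae copies and -1.97 and -1.56 for the S. eubayanus copies, and NOP16 lies above it.

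The ratio moved most for UTP21, a UTP-B subunit. Its S. eubayanus copy was at 21.04 and 20.2 FPKM on glucose and 12.5 and 11.6 on maltotriose, and its S. cerevisiae copy at 16.9 and 18.5 on glucose and 4.06 and 4.79 on maltotriose (change of the log2 ratio 1.06 ± 0.13, adjusted p = 0.000639, limma). The other ratios that rose belonged to NOP58 (1.04), RRP3, a small subunit helicase (0.98), NOP1 (0.81), RRP14 (0.74), NOP12 (0.42) and NSA2 (0.34). In the opposite direction NOP2, a ribosomal RNA methyltransferase of the 60S pathway, went from 48.4 and 59.6 FPKM to 13.1 and 15.0 in the S. eubayanus copy and from 66.2 and 78.5 to 40.8 and 40.9 in the S. cerevisiae copy (-1.06 ± 0.12, adjusted p = 0.000374, limma). RRP4 of the exosome followed, from 59.6 and 61.1 to 29.3 and 23.2 FPKM in the S. eubayanus copy and from 35.6 and 34.2 to 31.5 and 27.3 in the S. cerevisiae copy (-0.93 ± 0.10). NOP4 (-0.93), NOP16 (-0.89) and NOP15 (-0.84) came next. By complex, 2 of 4 box C/D and U3 ratios were higher, 3 of 18 60S ratios were higher and 5 lower, and 2 of 7 exosome ratios were lower. Of all pairs 27.4% rose and 32.9% fell, so these small counts are not read as a difference between complexes.

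Across libraries most of the factors moved together. Each gene was correlated with the median profile of the other factors over 13 libraries of the S. eubayanus strains, without the library of few reads, and 49 of the 56 reached a Pearson r of 0.9 (median 0.97), against a median of 0.03 for all other genes. The share of other genes at 0.9 was not counted, so the likeness is not shown to be particular to these factors. The points share their library, and the values are a description. The lowest were UTP20 (0.53), RRP40 (0.56) and RRP6 (0.61). Over the 6 hybrid libraries 49 S. eubayanus and 49 S. cerevisiae copies reached 0.9, against medians of 0.35 and 0.26 for all other genes of those subgenomes, and the lowest were NOP16 (-0.32) and UTP20 (0.21) of CBC-1 and RRP46 (0.01) and RRP14 (0.07) of S. eubayanus. Split by the promoter motif of S288C, the 45 genes with PAC had a median log2 difference on maltotriose of -1.56 in IMX1939 and the 11 without it of -1.12. In the hybrid the S. cerevisiae copies had -1.28 and -0.95 and the S. eubayanus copies -1.46 and -1.13, with ranges that overlap widely. PAC was found in 3 of 7 genes of the exosome, the complex with the smallest median fall. RRP6, RRP42, RRP45 and RRP46 of the exosome are thus among the 11 genes without PAC. The rest of the 11 ranged in the hybrid from UTP4 (-2.18) to RRP7 (-0.55) in the S. eubayanus copies. In the S. cerevisiae copies they ranged from UTP4 (-1.82) to RRP7 (-0.64). The part of the motif beside that of the complex was not tested.

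Other genes of the pathway were described from a list of ribosome biogenesis genes outside these name families. In IMX1939 on maltotriose 56 of these 104 genes fell and 1 rose, with a median log2 difference of -1.25, and 6 of 15 RNA polymerase I subunits fell (median -0.94), where 16% of all genes fell and 23.8% rose. In HTS020 on maltotriose 176 of 210 copies fell and none rose (median -1.30), as did 22 of 30 copies of polymerase I genes, of which 2 rose, where 39.7% of all genes fell and 31.3% rose. On maltose the hybrid list had 7 of 210 copies lower, and the list of IMX1765 none of 104, with medians of -0.61 and -0.45, where 2.98% and 1.94% of all genes fell. Of 24 copies of 11 listed regulators of the pathway, such as SFP1, STB3, DOT6, TOD6 and genes of the TOR pathway, 9 rose and 2 fell in HTS020 on maltotriose, near the 31.3% of all genes that rose. The stress list rose in 13 of 25 genes in IMX1939 (median 2.01), where 23.8% of all genes rose, and in 37 of 52 copies in HTS020 (median 2.40), where 31.3% did, and its part in the fall of the biogenesis factors was not tested.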

How the data were processed

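The authors aligned paired reads with STAR (2.5.3a in the submitters' processing notes) to the assembly of CDFM21L.1, and the hybrid table holds genes of both parents. Their methods name htseq-count for counting and the processing notes featureCounts (Subread 1.6.3), and reads that fitted more than 1 place were removed. The authors deposited FPKM values made with edgeR, 1 table for the S. eubayanus strains and 1 for the hybrid, normalized over different gene sets, so that no test crossed them. The study describes the 2 cultures of a group as biological duplicates, and p-values measure the spread between these cultures. At least 99.8% of values gave whole reads within 0.01 reads, and these recovered reads were used for depth and for limma voom.

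Differences were fitted with limma 3.58.1 (R 4.3.3, trended prior) on log2(FPKM + 1) for genes whose mean reached 1 FPKM, with 14 S. eubayanus libraries in 1 fit and 6 hybrid libraries in another, and Benjamini-Hochberg adjustment over 5404 and 10990 genes with a threshold of 0.05. A fold on this scale understates the change of low genes. Tables and plots were made with Python 3.11.15, NumPy 2.4.6, pandas 2.3.3 and matplotlib 3.10.9. The fit was also run on simulated reads, whose genes varied independently of each other between cultures. In IMX1939 the factors differed together between cultures, so the simulation does not cover that spread. The members and lists were chosen with earlier results of these data known. Genes named singly were the 5 largest falls and rises past the threshold per comparison, the highest and lowest gene of each complex, genes called against the majority, and NOP1, NOP56, NOP58, UTP22, RRP5, RRP6, NOP7 and NSA2. Alternatives were a pseudocount of 0.1, no filter, rescaling by the median ratio, a replicate block, fits of only the groups compared, limma voom and leaving out single cultures.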

Additional observations from a re-analysis of the deposited data

How the results depend on the processing

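Of 655 values under the alternatives for singly named genes that were called in the main fit, 555 kept their call, 100 lost it and 0 reversed. Genes named without a call are not in this count. The alternatives reused the same cultures for genes picked mostly by the size of their change, so that few reversals could occur. The counts called for the 56 factors, or 112 copies, moved as follows. With fits of only the compared groups they were 39 (IMX1765 on maltose), 0 (IMX1765 on maltotriose), 7 (IMX1939 on maltotriose), 0 (IMX1939, maltotriose against maltose), 31 (IMX1765 against CDFM21L.1) and 1 (HTS020 on maltose). The shares of all genes that fell in those fits were 16.7%, 0%, 7.37%, 0.0186%, 12.4% and 1.74%, in the same order. With limma voom the counts were 4 lower (IMX1765 on maltotriose), 1 higher (IMX1939 on maltose), 11 lower (IMX1939, maltotriose against maltose) and 8 lower (HTS020 on maltose). In those fits 4.92% of all genes fell, 18.2% rose, 4.24% fell and 3.37% fell, in the same order. Voom was not run on the ratios. With rescaled libraries the counts were 3 for IMX1939 between maltotriose and maltose, where 1.24% of all genes fell, and 11 for HTS020 on maltose, where 4.17% did. HTS020 on maltose had 3 with a pseudocount of 0.1, where 2.88% of all genes fell, and 1 without the filter, where 2.08% did. With the library of few reads left out, an alternative chosen after seeing the data, IMX1939 had 1 call on maltose, a rise, where 19.9% of all genes rose. Between maltotriose and maltose it had 19 falls, where 8.31% of all genes fell.

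The replicate numbers do not establish a pairing, since the labels tie them to no shared batch and each comparison has 2 pairs. As a check, the difference between culture 1 and culture 2 of each gene was correlated over genes between 2 sugars of a strain. This correlation of differences, not of levels, was 0.57 to 0.70 in IMX1939, 0.13 to 0.17 in IMX1765 and -0.14 to 0.26 in HTS020. With the replicate block the counts were 11 for IMX1939 between maltotriose and maltose, 52 on maltotriose and 2 for HTS020 on maltose. In those fits 3.02%, 20.7% and 2.46% of all genes fell. With crossed numbers of the maltotriose cultures in HTS020, also chosen after seeing the data, the block gave 10 calls on maltose and 102 on maltotriose, where 3.51% and 40.3% of all genes fell. Between maltotriose and maltose it gave 64, of which 60 fell and 4 rose, where 37.3% of all genes fell and 28.8% rose.

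Leaving out single cultures gave 0 calls for IMX1765 on maltose, IMX1939 on maltose, both strain comparisons on glucose, their interaction and the ratio on maltose. It gave 0 to 10 for IMX1765 on maltotriose, 3 to 51 for IMX1939 on maltotriose, 0 to 4 between its maltotriose and maltose, 0 to 100 for HTS020 on maltose, 78 to 87 on maltotriose, 32 to 100 between maltotriose and maltose, and 14 to 19 for the ratio on maltotriose. The culture left alone is assumed to vary like the other groups. The share of all genes called also moved in these fits, so that the counts alone are not a result about the factors. The cause of these moves was not tested, apart from fewer samples in the smaller fits. Depth was lowest, at 318922 reads, in culture 1 of IMX1765 on maltotriose, where 2 factors had fewer than 10 reads.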
